A study of Mus musculus with 24 samples.

Results

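The fatty acid desaturases measured here are 7 genes: Scd1, Scd2, Scd3 and Scd4, which encode stearoyl-CoA desaturases, and Fads1, Fads2 and Fads3 of the fatty acid desaturase cluster. They are the rows of the 3 deposited tables whose symbol is one of these names on a numbered chromosome, 7 of 47372 genes in all. Both clusters lie on mouse chromosome 19 (GRCm38 coordinates as deposited). Fads3 (ENSMUSG00000024664, 10041548 to 10059671, plus strand), Fads2 (ENSMUSG00000024665, 10064164 to 10101503, minus strand) and Fads1 (ENSMUSG00000010663, 10182888 to 10196870, plus strand) stand side by side. Scd3 (ENSMUSG00000025202, 44203288 to 44244016), Scd2 (ENSMUSG00000025203, 44293676 to 44306864) and Scd4 (ENSMUSG00000050195, 44333092 to 44346743), all on the plus strand, precede Scd1 (ENSMUSG00000037071, 44394451 to 44407709, minus strand).

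Stearoyl-CoA desaturases sit in the endoplasmic reticulum and place a double bond at the delta-9 position of saturated acyl chains, giving the monounsaturated palmitoleate and oleate that enter phospholipids, triglycerides and cholesteryl esters. Fads2 (delta-6 desaturase) and Fads1 (delta-5 desaturase) act in turn, with an elongation step between them, on the path from dietary linoleate to arachidonate, the precursor of prostaglandins in macrophages. Liver X receptors (LXR) are nuclear receptors for oxidized cholesterol derivatives, and they raise Scd genes both directly and through the transcription factor SREBP-1c, the product of Srebf1.

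RNA was sequenced from macrophages grown from bone marrow of C57BL/6J mice aged 8 to 12 weeks. The mice were of genotype LXR positive or labelled DKO (LXR negative), the latter lacking LXRα and LXRβ. Marrow cells were cultured in DMEM with 20% FBS and 30% L929 conditioned medium, renewed after 4 days, and on day 5 received vehicle, 100 ng/ml KLA or 1 µM GW3965 for 17 hours. Acetylated LDL (AcLDL) was used at 50 µg/ml, for a time that no label states. KLA is Kdo2-lipid A, which activates TLR4, GW3965 is a synthetic LXR agonist, and AcLDL is a modified lipoprotein that loads macrophages with cholesterol. Each of the 8 groups has 3 libraries, numbered 1 to 3 and read here as 1 per mouse. On that reading all 4 treatments of a genotype share the same 3 mice.

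LXR-positive libraries held 6448579 to 17348717 reads and DKO libraries 9705391 to 27189081, ranges that overlap but lie higher in DKO. Macrophage markers were present in every group (10 of 10 at 10 normalized counts or more). Their summed level was lower in DKO than in LXR-positive cells under each treatment without overlap (199001 to 236361 against 252897 to 326243 with vehicle). Lyz2 dominated that sum, with a median of 165758 over all libraries, against at most 25063 for any other marker. Gene by gene, 0 of 10 were called between genotypes with vehicle (0.316% of all tested genes). With KLA 0 were lower and 1 was higher in DKO (6.87% called). Of 8 adipocyte markers, Cidec and Cfd were at 0 in all 24 libraries and Adipoq and Lep reached at most 2.30 and 2.03 normalized counts. Retn held 1.19 to 10.6, Plin1 2.66 to 20.3, Fabp4 65.9 to 472 and Pparg 12.1 to 579.7, and macrophages are also known to express Fabp4 and Pparg. The 8 summed to 91.3 to 731.8 in LXR-positive and 246 to 958 in DKO libraries. Under GW3965 and under AcLDL 1 of 3 tested was higher in DKO cells, beside 4.2% and 3.76% of all tested genes. Nr1h2 and Nr1h3 encode the receptors, and both still had reads in DKO cells. Nr1h2 held 275 to 399 normalized counts in DKO and 438 to 821 in LXR-positive libraries, and was lower in DKO under all 3 treatments (log2 difference -0.65 with GW3965, -0.67 with AcLDL and -0.88 with KLA, limma adjusted p = 0.044, 0.025 and 0.032). Nr1h3 went the other way with AcLDL, where DKO was higher by 0.66 (mean 222 against 140.4, adjusted p = 0.033). Its means were 181 against 135 with vehicle, 193 against 142 with GW3965 and 672 against 895 with KLA. No label names the exons removed, so these totals do not check the genotype. Summed over 9 stromal marker genes, DKO libraries held 285 to 8784 normalized counts and LXR-positive libraries 112 to 1321, and the DKO libraries numbered 3 were lowest under every treatment.

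The Scd genes are close copies, and that bears on how far their values can be read 1 by 1. In the coding sequence of all 4 genes an identical run of 61 bases crosses the junction of exons 4 and 5 (of 6), at chr19:44400364-44401742 in Scd1 (minus strand) and chr19:44299765-44301222 in Scd2 (plus strand), in GENCODE M21 transcripts (GRCm38). It is shown because a 50-base read inside it fits each of them equally well.
Run shared by Scd1, Scd2, Scd3 and Scd4: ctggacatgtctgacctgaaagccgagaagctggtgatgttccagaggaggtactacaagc
Of all 50-base words in a gene's transcripts, 6.57% in Scd3, 5.54% in Scd4, 4.56% in Scd1 and 3.97% in Scd2 occur in another gene as well, mostly in another Scd copy. In Fads2 and Fads3 the shares were 0.152% and 0.127%, and in Fads1 it was 0. The submitters' notes name kallisto but not how such reads were divided, so the split among Scd copies is uncertain, above all for the low Scd3 and Scd4. Scd2 also contains Mir5114, whose 61 bases lie inside an Scd2 exon on the same strand.

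RefSeq holds promoters for 4 of the 7 genes in the table at hand, 250 bases before to 50 after the start (GRCm38.p6). They are shown because they pair 2 genes whose RNA rose with GW3965 in LXR-positive cells, Fads2 and Scd4, with genes of the same clusters that did not pass the test, Fads3 and Scd3. Fads3 lies next to Fads2, whereas Scd2, which also rose, lies between Scd3 and Scd4. The stretches are chr19:10101454-10101753 (Fads2, minus strand), chr19:10041298-10041597 (Fads3, plus strand), chr19:44333076-44333375 (Scd4, plus strand) and chr19:44203038-44203337 (Scd3, plus strand). They are placed by the RefSeq start. For Scd4 the deposited gene start, 44333092, lies near the first base of the window. By that coordinate most of the Scd4 window lies after the start. Capitals mark a GC box (GGGCGG) or a CCAAT box (CCAAT) on either strand.
Fads2 promoter: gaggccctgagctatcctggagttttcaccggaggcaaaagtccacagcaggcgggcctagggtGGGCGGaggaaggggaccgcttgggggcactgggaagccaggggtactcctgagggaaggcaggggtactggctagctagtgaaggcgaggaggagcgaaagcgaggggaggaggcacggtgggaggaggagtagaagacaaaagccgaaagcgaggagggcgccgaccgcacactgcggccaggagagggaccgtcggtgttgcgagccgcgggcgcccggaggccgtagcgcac
Fads3 promoter: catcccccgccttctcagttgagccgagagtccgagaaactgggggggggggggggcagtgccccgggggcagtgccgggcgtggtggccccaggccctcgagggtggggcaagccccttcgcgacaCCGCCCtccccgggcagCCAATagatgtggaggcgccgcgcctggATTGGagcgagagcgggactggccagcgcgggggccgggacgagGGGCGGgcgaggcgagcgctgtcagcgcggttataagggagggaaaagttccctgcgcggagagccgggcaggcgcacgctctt
Scd4 promoter: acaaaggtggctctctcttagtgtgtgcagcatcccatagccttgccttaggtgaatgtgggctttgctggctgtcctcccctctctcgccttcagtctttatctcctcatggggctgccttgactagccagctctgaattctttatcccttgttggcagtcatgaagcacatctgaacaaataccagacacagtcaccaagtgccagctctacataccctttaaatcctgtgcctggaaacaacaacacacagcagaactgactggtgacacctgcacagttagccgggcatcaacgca
Scd3 promoter: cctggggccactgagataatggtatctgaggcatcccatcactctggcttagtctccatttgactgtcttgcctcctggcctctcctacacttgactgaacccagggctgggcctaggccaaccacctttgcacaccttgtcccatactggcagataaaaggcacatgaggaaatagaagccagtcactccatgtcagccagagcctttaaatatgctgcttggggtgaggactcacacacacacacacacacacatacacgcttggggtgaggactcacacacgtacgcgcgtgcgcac
Fads2 holds 1 GC box, 186 bases before the start. Fads3 holds 2 GC boxes and 2 CCAAT boxes within 123 bases before the start, and Scd4 and Scd3 hold neither. The LXR element known as DR4, searched by its consensus, and a sterol regulatory element (TCACNCCAC), each searched on both strands, are in none of the 4. Of 32851 RefSeq promoters of this length, 35.7% hold the GC box, 37.4% the CCAAT box, 1.24% the sterol element and 0.0152% the LXR element, so their absence from 4 windows says only that these letters are not there. The motifs do not overlap one another in these windows.

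Per kilobase of exon, Fads1 was the most abundant desaturase in LXR-positive vehicle cells, at 216 ± 12.2 normalized counts per kb (mean ± SD, n = 3), followed by Scd2 at 43.6 ± 1.19. Fads3 (10.2 ± 2.02), Scd3 (4.93 ± 0.50), Fads2 (4.34 ± 0.10) and Scd1 (3.28 ± 1.59) were lower, and Scd4 (0.69 ± 0.72) was lowest. With GW3965 Scd2 came first at 2261 ± 109.8 per kb, with Scd1 (365 ± 48.2) and Fads1 (324 ± 16.4) close together behind it. Scd2 was thus the most abundant delta-9 desaturase with and without the agonist, and Fads1 was high without it.

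**Figure D1:**
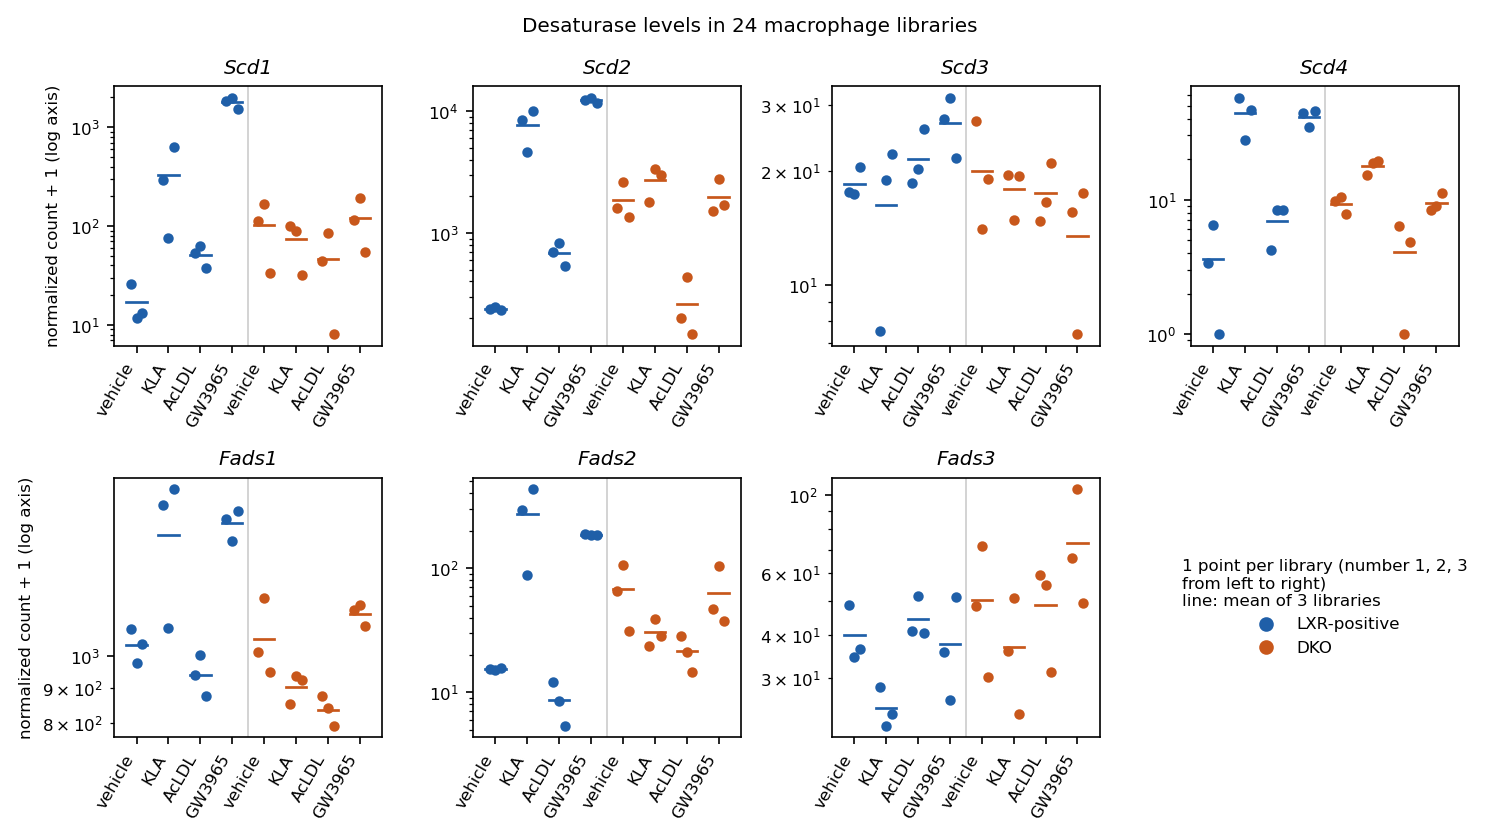
Normalized count plus 1 (log axis) of each desaturase gene in 24 libraries, 1 panel per gene, with 8 groups along the horizontal axis, 1 point per library and a line at the mean of 3. The axes differ between panels. Scd2 stands at 11701 to 12882 normalized counts in LXR-positive GW3965 libraries and at 232 to 245 with vehicle, while Scd3 stays between 6.39 and 30.3 in all 24 libraries.

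GW3965 raised 5 of the 7 desaturases in LXR-positive macrophages, and 0 passed the test in DKO macrophages. Those that rose were Scd1, Scd2, Scd4, Fads2 and Fads1, and 0 fell, where 0.267% of 16116 tested genes were called in either direction (limma, Benjamini-Hochberg adjusted p under 0.05). The median log2 fold change over all 7 was 3.60, against -0.02 over all tested genes. In DKO cells 0 of 7 were called (0.00621% of tested genes), with a median of 0.10. The difference in response itself was called for 3 of 7, Scd1, Scd2 and Fads2, all lower in DKO cells (0.118% of tested genes). That of Scd4 was -3.85 ± 0.81 SE (adjusted p = 0.20).

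KLA raised Scd1, Scd2, Scd4, Fads2 and Fads1 in LXR-positive cells (5 of 7 higher, 0 lower), in a response that called 28.6% of 15957 tested genes. In DKO cells 0 of 7 were called, where 25.2% of tested genes were. The KLA response differed between genotypes for Scd2 and Fads2 (2 of 7, both lower in DKO), against 0.0689% of tested genes. Both treatments were compared with the same vehicle libraries, so the GW3965 and KLA lists are not independent.

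AcLDL called 0 of 6 tested desaturases in LXR-positive cells (0.225% of 16026 tested genes) and 1 of 6 in DKO cells, Scd2, which fell (0.125% of tested genes, 0.0125% higher). Scd4 was too low to be tested in these 12 libraries. With the mouse as a block, Scd2 and Scd1 rose in LXR-positive cells (2 of 6, adjusted p = 0.0045 and 0.042), in a fit that called 1.54% of all tested genes. The alternatives ranged from 0.0019 to 0.31 for Scd2 and from 0.042 to 0.57 for Scd1. The difference in AcLDL response was called for 1 of 6, Scd2 (0.025% of tested genes, 0.00624% with a higher value in DKO).

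**Figure D2:**
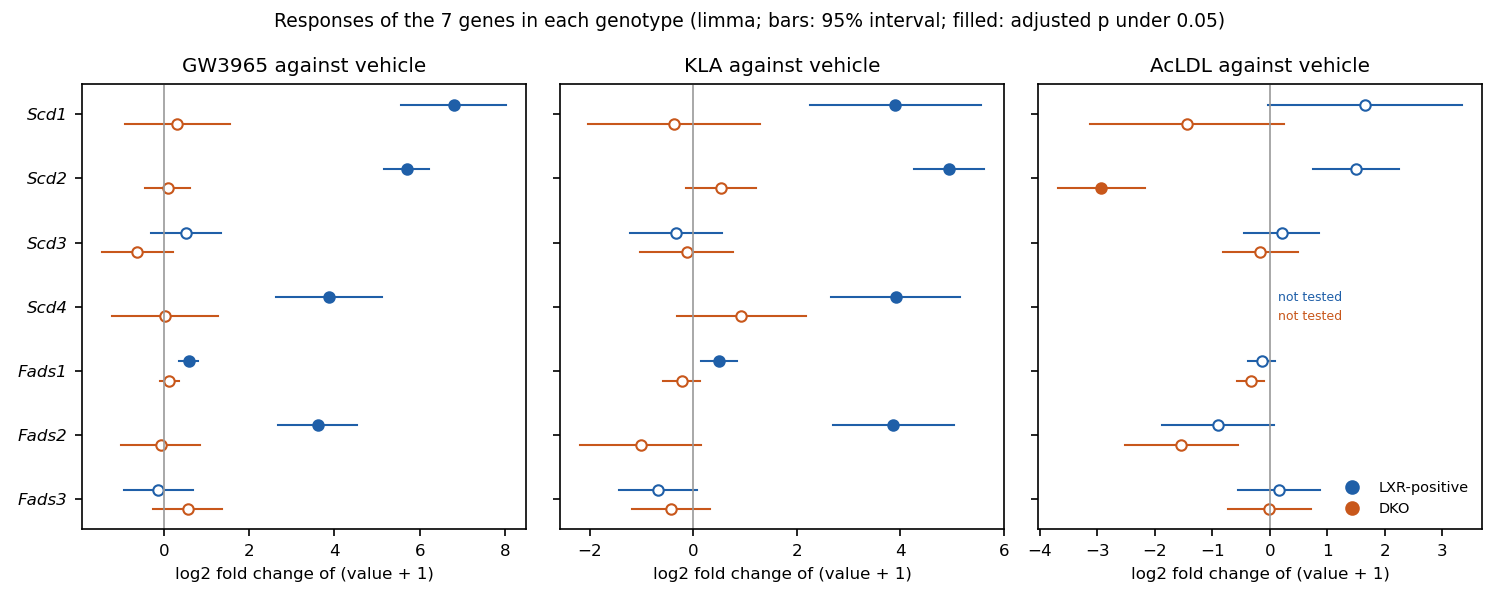
Log2 fold change of (value + 1) against vehicle for each of the 7 genes with GW3965, KLA and AcLDL, in LXR-positive and DKO cells (points) with 95% intervals from limma (bars). Filled points had an adjusted p under 0.05. With GW3965 and with KLA there are 5 filled points, all in LXR-positive cells, and with AcLDL the single filled point is Scd2 in DKO cells at -2.93.

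Scd2 was the most abundant of the delta-9 desaturases here. In LXR-positive cells its 3 libraries stood at 238, 245 and 232 normalized counts with vehicle, at 697, 822 and 535 with AcLDL, at 8403, 4657 and 10062 with KLA and at 12476.5, 12882 and 11701 with GW3965. These 4 groups did not overlap, and they lie in the order vehicle, AcLDL, KLA, GW3965. In DKO cells the vehicle libraries held 1618, 2646 and 1344, the GW3965 libraries 1509, 2762 and 1688, the KLA libraries 1793, 3331 and 2989, and the AcLDL libraries 201, 436 and 147. Vehicle, GW3965 and KLA overlapped there, and AcLDL lay below all 3.

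Within LXR-positive cells the GW3965 response of Scd2 was 5.69 ± 0.24 SE on the log2(value + 1) scale (limma adjusted p = 1.8e-07) and the KLA response 4.94 ± 0.31 (5.7e-07). The AcLDL response was 1.50 ± 0.34 (adjusted p = 0.13), higher in 3 of 3 mice by 1.55, 1.74 and 1.20. In DKO cells Scd2 fell by 2.93 on that scale with AcLDL (SE 0.34, adjusted p = 0.0026), and the changes in the 3 mice were -3.01, -2.60 and -3.19. Its mean was 7.16-fold lower than with vehicle. With only the 6 libraries compared in the fit, this call ended (adjusted p = 0.14; alternatives 4.9e-14 to 0.14). GW3965 and KLA gave 0.10 ± 0.24 and 0.54 ± 0.31 in DKO cells, with 95% intervals from -0.43 to 0.62 and from -0.13 to 1.22.

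Under vehicle, Scd2 was the single desaturase called between genotypes, higher in DKO cells by 2.91 ± 0.24 (adjusted p = 1.1e-04, a 7.84-fold ratio of means), where 0.316% of tested genes were called (0.0745% lower in DKO). Under each of the 3 treatments Scd2 was lower in DKO than in LXR-positive cells, with differences of -2.69 ± 0.24 with GW3965 (adjusted p = 1.1e-04), -1.49 ± 0.31 with KLA (0.020) and -1.52 ± 0.34 with AcLDL (0.023). The KLA difference lost its call without LXR-positive KLA library 3 or any single DKO KLA library (0.051 to 0.067). The AcLDL difference lost it without LXR-positive AcLDL library 1 or 2 or DKO AcLDL library 1 or 3 (0.051 to 0.085). Ordered by mean, the 8 groups ran from LXR-positive GW3965 (12353), LXR-positive KLA (7708), DKO KLA (2704), DKO GW3965 (1986), DKO vehicle (1869) and LXR-positive AcLDL (685) to DKO AcLDL (261) and LXR-positive vehicle (238). Neighbours in this order whose libraries overlap are DKO KLA, GW3965 and vehicle among themselves, and DKO AcLDL with LXR-positive vehicle.

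The difference in response, DKO minus LXR-positive, was -5.59 ± 0.34 for GW3965 (adjusted p = 1.2e-05), -4.43 ± 0.49 for AcLDL (0.0092) and -4.39 ± 0.44 for KLA (0.0030). All 3 share the same vehicle libraries, in which DKO cells were already high. The AcLDL difference missed the threshold without LXR-positive vehicle library 1 (0.052) or LXR-positive AcLDL library 2 (0.054), over alternatives from 1.7e-15 to 0.054. Set against AcLDL in place of vehicle, GW3965 cells held more Scd2 in both genotypes, by 4.19 ± 0.35 in LXR-positive (adjusted p = 4.5e-07) and 3.03 ± 0.35 in DKO cells (5.9e-05). In that comparison 4 of 7 desaturases were higher with GW3965 in LXR-positive cells (Fads2, Fads1, Scd2 and Scd1; 0.509% of 17082 tested genes) and 1 of 7 in DKO cells (0.14%, with 0.0176% lower).

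Scd1, the best known delta-9 desaturase of liver and fat, was nearly silent in LXR-positive vehicle cells, at 25.0, 10.9 and 12.2 normalized counts. GW3965 libraries held 1846, 1982 and 1522, AcLDL libraries 52.6, 62.3 and 36.5, and KLA libraries 288, 74.9 and 624. All 3 treated groups lay above vehicle, and KLA library 2 was far below the other two of its group. GW3965 raised Scd1 by 6.79 ± 0.56 on the log2 scale (limma adjusted p = 1.1e-04), a 111-fold ratio of means, and KLA by 3.90 ± 0.76 (0.0023). AcLDL gave 1.65 ± 0.77 (adjusted p = 0.41), higher in 3 of 3 mice.

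Scd1 in DKO cells stood at 111, 164 and 32.5 with vehicle, 114, 191 and 53.2 with GW3965, 98.1, 88.8 and 31.2 with KLA, and 43.6, 84.2 and 7.09 with AcLDL. These 4 groups overlapped, and library 3 was the lowest in each of them. The DKO responses were 0.32 ± 0.56 (GW3965), -0.37 ± 0.76 (KLA) and -1.44 ± 0.77 (AcLDL), none called. Under vehicle the genotypes did not overlap for Scd1, and DKO was higher by 2.41 ± 0.56, which missed the threshold (adjusted p = 0.14). Without DKO vehicle library 3 it passed (3.09, adjusted p = 0.022), as it did in DESeq2 on recovered reads (0.0051), over alternatives from 0.0051 to 0.40. The GW3965 response differed between genotypes by -6.48 ± 0.79 (limma adjusted p = 0.0052), while the KLA difference of -4.27 ± 1.07 was not called (0.59; DESeq2 0.017, alternatives 0.017 to 1.0). By mean, LXR-positive GW3965 (1783) stood apart, and every other neighbouring pair in the order of the 8 groups overlapped, down to LXR-positive vehicle cells.

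Scd4, described mainly from heart, was close to the floor of detection without a ligand. LXR-positive vehicle libraries held 2, 7 and 0 reads of it (2.38, 5.45 and 0 normalized counts), against 21, 19 and 30 reads with GW3965 (42.7, 33.9 and 44.2 normalized counts) and 43, 18 and 30 reads with KLA (56.1, 27.0 and 45.5). Neither treated group overlapped with vehicle. Scd4 rose by 3.88 ± 0.57 with GW3965 (limma adjusted p = 0.0096) and by 3.91 ± 0.57 with KLA (3.2e-04). With so few vehicle reads the size rests on the pseudocount, and at a pseudocount of 8 the values were 2.21 and 2.25. The GW3965 call ended without LXR-positive GW3965 library 1 or 3 and with only the 6 libraries compared (adjusted p = 0.052 to 0.14; alternatives 3.6e-06 to 0.14). In DKO cells Scd4 held 8.71, 9.50 and 6.76 with vehicle, 7.30, 7.99 and 10.1 with GW3965, and 14.2, 17.6 and 18.4 with KLA. The KLA libraries lay above the other two groups, but the response of 0.93 ± 0.57 did not pass (adjusted p = 0.27). AcLDL libraries held 0 to 7.42 in the 2 genotypes, where a difference was not detectable at this depth. By mean, LXR-positive KLA (42.9) and GW3965 (40.3) came first and overlapped, DKO KLA (16.7) stood alone, and the other 5 groups followed from 8.47 to 2.61 with every neighbour overlapping.

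Scd3, known from skin and the Harderian gland, passed no test in any comparison. Its values ran from 6.39 to 30.3 normalized counts (5 to 54 reads) over all 24 libraries, with group means from 12.5 in DKO GW3965 to 25.8 in LXR-positive GW3965 cells. Every neighbouring pair in the order of its 8 group means overlapped. In LXR-positive cells the GW3965 response was 0.52 ± 0.38 with a 95% interval from -0.30 to 1.35, which lies below the lower bound of 2.63 for Scd4, from the same fit. The intervals of 2 genes in the same libraries are not a test of their difference.

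A sum over the 4 copies does not depend on how reads were divided among them. It still holds sequence shared with other genes, mainly AC123853.3, 1500011B03Rik and Gm20362, besides Mir5114. The Scd sum rose and fell with Scd2. It changed by 5.69 ± 0.24 with GW3965 and 4.80 ± 0.31 with KLA in LXR-positive cells (limma adjusted p = 2.2e-07 and 7.8e-07), and fell by 2.70 with AcLDL in DKO cells (SE 0.35, 0.0055). Scd2 made up 80.0% to 95.8% of that sum by group mean. The Scd1 share was 12.8%, 13.3% and 11.5% in LXR-positive GW3965 libraries, against 8.86%, 3.92% and 4.63% with vehicle and 3.29%, 1.57% and 5.80% with KLA. The GW3965 libraries lay above both other groups. In DKO cells the Scd1 share was 6.28%, 5.80% and 2.32% with vehicle, and 16.6%, 15.7% and 3.99% with AcLDL, where the groups overlapped. Differences between these shares were not tested.

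**Figure D3:**
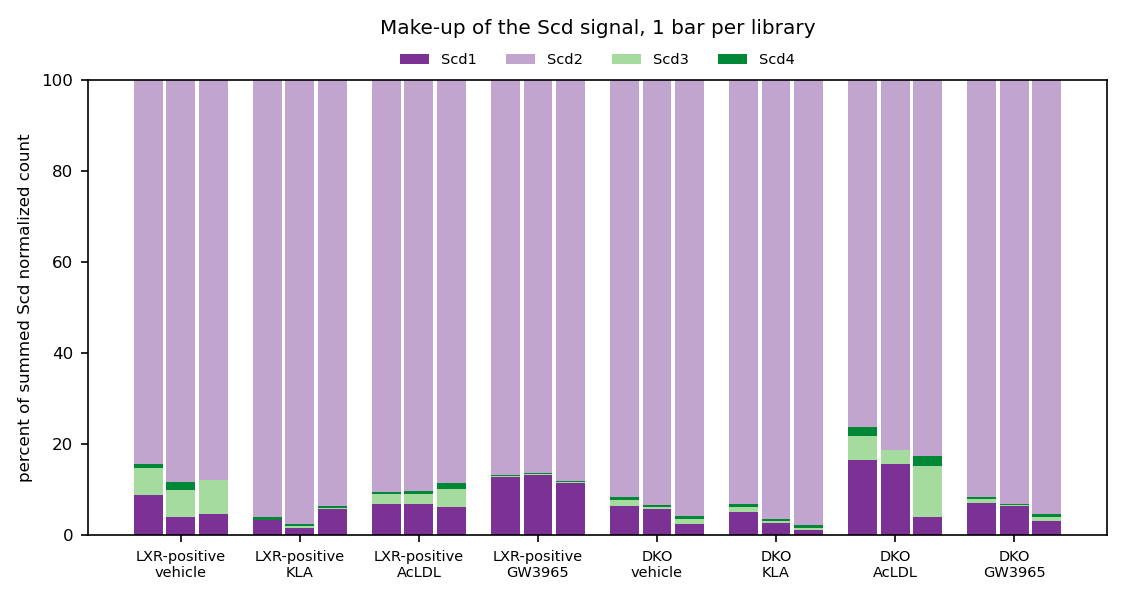
Percent of the summed normalized counts of Scd1, Scd2, Scd3 and Scd4 that each gene makes up, as 1 stacked bar per library in 8 groups of 3. Scd2 takes the largest share in all 24 bars, and the Scd1 share is 11.5% to 13.3% in the LXR-positive GW3965 libraries.

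Fads2, the delta-6 desaturase that opens the path to arachidonate, held 14.3, 14.0 and 14.7 normalized counts in LXR-positive vehicle libraries, from 12, 18 and 12 reads. GW3965 libraries held 189, 184 and 183, from 93, 103 and 124 reads. So few reads do not show that the levels were as even as these values. KLA libraries held 292, 86.9 and 431, and AcLDL libraries 11.2, 7.42 and 4.38. Both GW3965 and KLA lay above vehicle, and all 3 AcLDL libraries lay below it. Fads2 rose by 3.60 ± 0.42 with GW3965 (limma adjusted p = 0.0017, a 12.9-fold ratio of means) and by 3.87 ± 0.54 with KLA (2.2e-04, 18.9-fold). AcLDL gave -0.90 ± 0.45 (adjusted p = 0.44), on 3 to 7 reads per library.

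In DKO cells Fads2 stood at 64.3, 105 and 30.2 with vehicle, 45.8, 104 and 36.7 with GW3965, 22.8, 37.9 and 27.5 with KLA, and 27.6, 20.3 and 13.5 with AcLDL. AcLDL lay below vehicle in all 3 mice, at -1.54 ± 0.45, but did not pass (adjusted p = 0.58). The KLA response was -1.01 ± 0.54 (0.20), lower in 3 of 3 mice where LXR-positive cells were higher in 3 of 3. The differences in response were -3.68 ± 0.60 for GW3965 (adjusted p = 0.044) and -4.88 ± 0.76 for KLA (0.047), both close to the threshold. The first lost its call in 13 of 20 alternatives (0.051 to 0.25; all alternatives 1.3e-05 to 0.25). These were a pseudocount of 8, edgeR, thinned reads, and leaving out any LXR-positive library of the fit, DKO vehicle 1 or 2, or DKO GW3965 1 or 3. The second lost it in 13 of 20 as well (0.051 to 0.19; all alternatives 7.6e-09 to 0.19). It did so with a pseudocount of 8, no filter or thinned reads. Leaving out any LXR-positive vehicle or any DKO KLA library, LXR-positive KLA 1 or 3, or DKO vehicle 1 or 2 did the same. In the order of means LXR-positive KLA (270.1) and GW3965 (185) came first and overlapped, and the DKO groups followed from 66.5 to 20.5. LXR-positive vehicle (14.3) overlapped with the lowest DKO group, AcLDL, and LXR-positive AcLDL (7.66) lay below all of them.

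Fads1, the delta-5 desaturase that makes arachidonate, had high and even values. LXR-positive libraries held 1094, 977 and 1039.8 normalized counts with vehicle, 1579.9, 1470.1 and 1623 with GW3965, 1654, 1098 and 1746 with KLA, and 939, 1002 and 875 with AcLDL. GW3965 and KLA lay above vehicle without overlap, KLA library 2 by a narrow margin. The rise was 0.59 ± 0.10 with GW3965 (limma adjusted p = 0.039) and 0.50 ± 0.16 with KLA (0.034), 1.50-fold and 1.45-fold by means. The GW3965 call ended without any 1 of the 6 libraries and in 5 other settings (0.052 to 0.19; all alternatives 8.3e-05 to 0.19). The KLA call ended without any vehicle library, without KLA library 1 or 3, and in 4 other settings (0.058 to 0.13; all alternatives 0.0012 to 0.13). DKO libraries held 1011, 1215 and 947 with vehicle, 1165, 1186 and 1105 with GW3965, 851, 934 and 922 with KLA, and 874, 838 and 792 with AcLDL. There AcLDL and KLA lay below vehicle without overlap, KLA by a narrow margin, and each was lower in 3 of 3 mice. The log2 changes of -0.33 ± 0.11 and -0.22 ± 0.16 did not pass (limma adjusted p = 0.62 and 0.35). Every neighbouring pair in the order of the 8 means overlapped, from 1558 in LXR-positive GW3965 to 835 in DKO AcLDL cells.

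Fads3, the third desaturase of its cluster, was called in no comparison. LXR-positive libraries held 47.6, 33.5 and 35.4 normalized counts with vehicle, 34.6, 24.9 and 50.1 with GW3965, 39.9, 50.5 and 39.4 with AcLDL, and 27.4, 21.0 and 22.8 with KLA. Only the KLA libraries lay apart from vehicle, below it, with a log2 change of -0.68 ± 0.35 (limma adjusted p = 0.17). With the mouse as a block this change passed (0.043; alternatives 0.043 to 0.37), in a fit that called 6 of 7 desaturases and 30% of all tested genes, at -0.77, -0.65 and -0.62 in the 3 mice. In DKO cells Fads3 stood at 47.4, 70.6 and 29.3 with vehicle and 65.1, 103 and 48.1 with GW3965, higher in 3 of 3 mice, with a response of 0.56 ± 0.37 (adjusted p = 0.92). DKO KLA libraries held 34.8, 49.9 and 22.6, also lower than vehicle in 3 of 3 mice, at -0.43 ± 0.35 (limma adjusted p = 0.41). The KLA response was not called as different between genotypes (0.25 ± 0.49, adjusted p = 0.95). DKO AcLDL libraries held 58.2, 54.5 and 30.3, with a Fads3 response of -0.01 ± 0.33. Neighbouring groups in its order of means, from 72.1 to 23.7, all overlapped.

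Between genotypes under treatment, 5 of 7 desaturases were lower in DKO cells with GW3965 (Scd1, Scd2, Scd4, Fads2 and Fads1), where 9.64% of tested genes were called in either direction (5.44% lower, 4.2% higher). For Scd1 the difference was -4.06 ± 0.56 (limma adjusted p = 0.0026), for Scd4 -2.12 ± 0.57 (0.040), for Fads2 -1.71 ± 0.42 (0.029) and for Fads1 -0.43 ± 0.10 (0.024). Thinned reads, and leaving out single libraries, ended the calls of Scd4, Fads2 and Fads1. For Scd4 leaving out any of the 6 did so, as did no filter (0.060 to 0.12 over these settings). For Fads2 it was any LXR-positive library, or DKO 1 or 3 (0.053 to 0.11). For Fads1 it was any but LXR-positive 2, and quantile normalization as well (0.052 to 0.21). With KLA 3 of 7 were lower in DKO cells, Fads2 (-2.91 ± 0.54, 0.014), Fads1 (-0.70 ± 0.16, 0.027) and Scd2, where 6.87% of tested genes were called (3.87% lower, 3.01% higher). Fads1 lost that call without LXR-positive KLA library 1 or 3 or any DKO KLA library. Quantile normalization, thinned reads and only the 6 libraries compared ended it as well (0.052 to 0.085 over all these settings). With AcLDL 1 of 6 was lower, Scd2 (8.6% of tested genes, 4.85% lower and 3.76% higher), and Fads2 was 1.33 ± 0.45 higher in DKO without passing (0.087).

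Markers of other cells went with some of these values in some groups. Under vehicle, DKO libraries 1, 2 and 3 held stromal sums of 2667, 4360 and 298 normalized counts, and Scd1, Scd2, Fads2 and Fads3 were highest in library 2 and lowest in library 3 as well. With GW3965 the stromal sums were 5035, 8784 and 1702, and Scd1, Fads2 and Fads3 followed that order again, whereas Scd2 was lowest in library 1. With KLA in DKO cells the sums were 2345, 2402 and 319, and only Fads3 followed that order. With AcLDL they were 2117, 4980 and 285, and Scd1 and Scd2 followed it, but Fads2 and Fads3 did not. In LXR-positive vehicle libraries the sums were 992, 236 and 112, and none of these genes followed that order. Scd1 and Fads3 were highest in library 1 there, and Scd2 stood at 238, 245 and 232. LXR-positive sums were 949.6, 397 and 249 with GW3965 and 1321, 484 and 178 with AcLDL, and under both treatments only Fads2 followed the order. With KLA in LXR-positive cells they were 1222, 256.1 and 259.6, and only Fads3 followed that order. In bulk RNA, fewer cells of a type and less RNA per cell cannot be told apart. DKO vehicle library 3, a single library, had a stromal sum inside the LXR-positive range (112 to 1321). Its neutrophil sum was 7208, against 4129 to 4556 in LXR-positive vehicle libraries. It held 1344 normalized counts of Scd2, against 232 to 245 in LXR-positive vehicle cells. Its Scd1 (32.5) and Fads2 (30.2) were above the highest LXR-positive vehicle library (25.0 and 14.7), and its Fads3 (29.3) was below the lowest (33.5). Neutrophil markers were also higher in DKO cells, with 6 of 8 called under GW3965 and under AcLDL and sums of 5873 to 11188 in DKO against 3038 to 6277 in LXR-positive libraries of those treatments. Of all tested genes 4.2% and 3.76% were higher in DKO cells under those treatments. Under KLA 3 of 8 were higher, beside 3.01%, and under vehicle 0 of 8 were called. KLA itself lowered 7 of 8 neutrophil markers in LXR-positive cells (median log2 fold change -1.78) and 4 of 8 in DKO cells (-1.27). The difference in KLA response was called for 0 of these 8 (0.0689% of all tested genes). Of all tested genes KLA lowered 12.4% and raised 16.2% in LXR-positive cells, and lowered 11.1% and raised 14% in DKO cells. Of 10 macrophage markers KLA raised 4 and lowered 4 in LXR-positive cells and raised 5 and lowered 3 in DKO cells. Between genotypes 2 of 10 were lower and 1 higher in DKO under GW3965, 3 lower and 1 higher under AcLDL, and 0 lower and 1 higher under KLA. Of all tested genes 5.44%, 4.85% and 3.87% were lower in DKO cells under GW3965, AcLDL and KLA. The part of these markers and cells in the desaturase values was not tested.

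**Figure D4:**
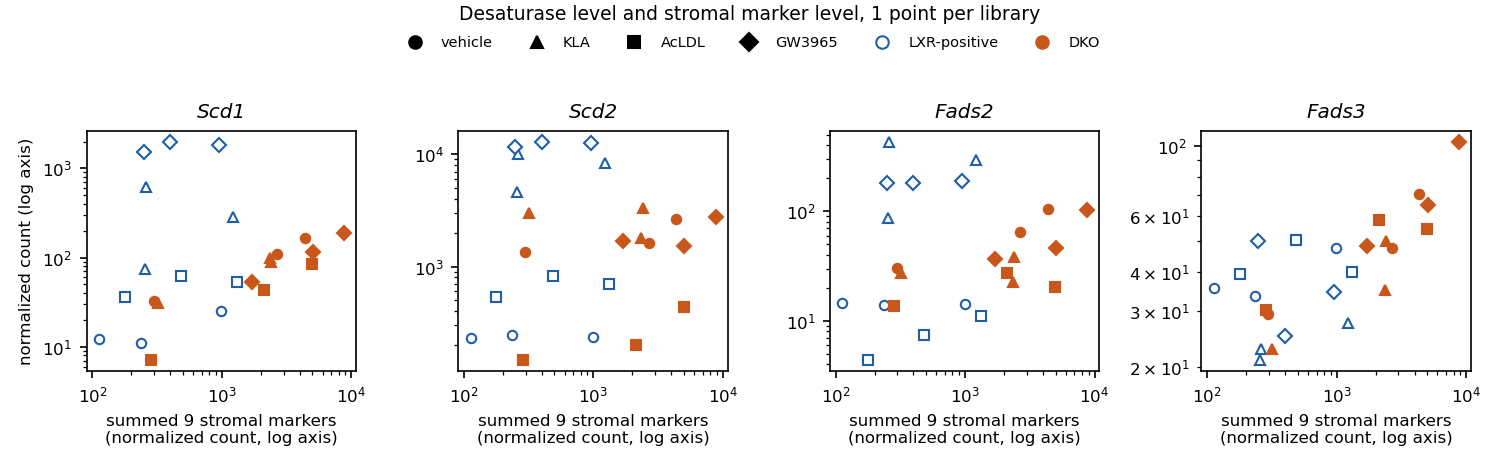
Normalized count of Scd1, Scd2, Fads2 and Fads3 (vertical log axes) against the summed normalized counts of 9 stromal marker genes (horizontal log axis), 1 point per library, with the symbol for the treatment and the colour for the genotype. The highest Fads3 value, 103, lies at the highest stromal sum, 8784. The LXR-positive GW3965 libraries hold the highest Scd1 and Scd2 at sums of 249 to 949.6.

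Of 17 tested genes in a list of 21 for fatty acid synthesis and elongation, 4 rose with GW3965 in LXR-positive cells and 0 fell. They were Fasn, fatty acid synthase (2.88 ± 0.24), Acaca, which makes malonyl-CoA (1.52 ± 0.14), Mid1ip1, whose product activates the enzyme made by Acaca (1.12 ± 0.14), and Elovl5, the elongase between the Fads2 and Fads1 steps (1.12 ± 0.14). The median of the list was 0.45, against -0.02 for all tested genes, 0.267% of which were called. With KLA 12 of the 17 rose in LXR-positive cells, with Acaca (1.44 ± 0.14), Me1, a source of NADPH (2.90 ± 0.29), and Slc25a1, the mitochondrial citrate carrier (1.52 ± 0.17), having the smallest adjusted p. In the same cells 1 fell, Elovl7 (-1.01 ± 0.29, limma adjusted p = 0.019). In DKO cells KLA raised 4 and lowered 1 of the 17. These counts stand beside 28.6% of all tested genes called with KLA in LXR-positive and 25.2% in DKO cells, and 5 of 17 in DKO cells is near that background. The difference in response between genotypes was called for 1 of the 17 with KLA, Acaca, and for 2 with GW3965, Acaca and Fasn. Of all tested genes 0.0689% and 0.118% were called in these 2 tests. With AcLDL 0 of 17 were called in either genotype.

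Desaturation draws electrons from cytochrome b5 and its reductases. Of 9 tested genes for these donors and for other desaturases, 0 were called with GW3965 in either genotype. KLA raised 4 in LXR-positive cells, Cyb5b (1.18 ± 0.13), Cyb5r3 (0.99 ± 0.12), Cyb5r4 (0.78 ± 0.09) and the sterol desaturase Sc5d (1.12 ± 0.22), and in DKO cells it raised 2 and lowered 2 (28.6% and 25.2% of all tested genes). With AcLDL in DKO cells Sc5d fell by 1.43 (SE 0.15, limma adjusted p = 0.0011). The difference in response between genotypes was called for 0 of the 9 with KLA and 0 with AcLDL (0.0689% and 0.025% of all tested genes).

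Among 11 tested regulators of the LXR and SREBP systems, Srebf1 (2.89 ± 0.15) and Insig1, which retains SREBP in the endoplasmic reticulum (1.38 ± 0.16), rose with GW3965 in LXR-positive cells, and 0 of 11 were called in DKO cells. Of all tested genes 0.267% were called with GW3965 in LXR-positive and 0.00621% in DKO cells. Under vehicle Srebf1 was higher in DKO by 0.91 ± 0.15 (limma adjusted p = 0.025). AcLDL lowered Insig1 and Srebf2, the factor of cholesterol synthesis genes, in both genotypes, with Insig1 at -1.08 ± 0.17 in LXR-positive and -2.15 ± 0.17 in DKO cells, and Srebf2 at -1.20 ± 0.14 and -1.52 ± 0.14. KLA raised 5 of the 11 in LXR-positive cells, among them Nr1h3 (2.67 ± 0.26), Srebf1 (1.50 ± 0.19) and Insig1 (1.51 ± 0.24), and 1 in DKO cells, Nr1h3 (1.89 ± 0.26), beside the same 28.6% and 25.2% of all tested genes. The difference in response was called for 0 of the 11 with KLA and 2 with GW3965, Srebf1 and Insig1 (0.0689% and 0.118% of all tested genes).

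Of 16 genes that activate, transfer or store unsaturated acyl chains, GW3965 raised 3 in LXR-positive cells: Acsl4, which activates arachidonate (1.47 ± 0.10), Lpcat3, which puts polyunsaturated chains into phospholipids (1.65 ± 0.17), and Acsl3 (1.93 ± 0.25). In DKO cells 0 of 16 were called. Of all tested genes GW3965 called 0.267% in LXR-positive and 0.00621% in DKO cells. KLA raised 7 and lowered 2 in LXR-positive cells and raised 6 and lowered 4 in DKO cells, beside 28.6% and 25.2% of all tested genes. The difference in response was called for 0 of the 16 with KLA and 1 with GW3965, Acsl4 (0.0689% and 0.118% of all tested genes). Of 5 genes of arachidonate release and oxygenation, Ptgs2, the inducible cyclooxygenase, rose with KLA by 5.15 ± 0.38 in LXR-positive and 5.22 ± 0.38 in DKO cells, and Ptgs1 changed by -2.32 and -2.02 (limma adjusted p = 1.1e-06 and 3.3e-06). In all, 3 of the 5 (2 higher, 1 lower) were called in each genotype with KLA (28.6% and 25.2% of all tested genes), and 0 of 5 with GW3965 or AcLDL.

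Over all 24 libraries, the gene whose log2 values were most like those of Scd2 among 17082 genes was Acaca (Pearson r = 0.94), followed by Srebf1 (0.889) and Scd1 (0.871). For Scd1 they were Srebf1 (0.906), Fasn (0.89) and Scd2, and for Scd4 Scd2 (0.862), Acaca (0.862) and Cyb5b (0.791). Fads2 was most like Sc5d (0.886), Insig1 (0.867) and Fasn (0.861), and Fads1 like Pank3 (0.916), Pdp2 (0.889) and Fasn (0.885). Fads3 was most like Rhoc (0.875), Tgfb1i1 (0.865) and Cyp26b1 (0.862), and Scd3 like Dmp1 (0.821), AC154343.1 (0.758) and Wdr18 (0.732), from few reads. Between the members themselves r was 0.68 to 0.871 among Scd1, Scd2, Scd4, Fads1 and Fads2, and -0.433 to 0.106 in every pair with Scd3 or Fads3. These values describe points that share mice, treatments and size factors and carry no p.

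**Figure D5:**
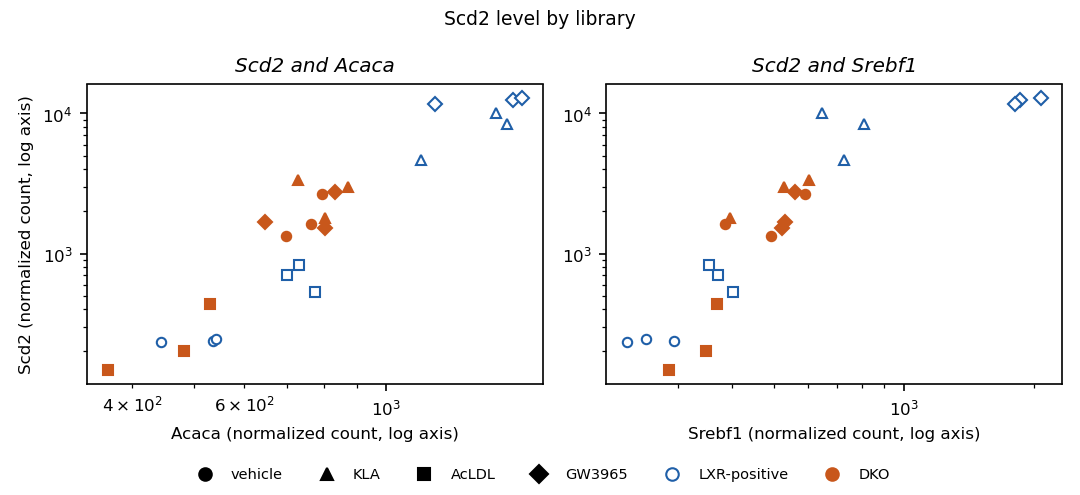
Scd2 normalized count (vertical log axis) against Acaca and against Srebf1 (horizontal log axes) in 24 libraries, with the symbol for the treatment and the colour for the genotype. The LXR-positive vehicle and DKO AcLDL libraries lie lowest for Scd2, at 147 to 436, and the LXR-positive GW3965 libraries lie highest for Scd2 and Srebf1.

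Of 16 genes within 100 kb of a member, 12 were tested with GW3965 and with AcLDL, and 0 were called in either genotype by either (limma, log2 fold changes from -0.60 to 1.00). With KLA 13 were tested and 6 were called in LXR-positive cells: Fth1, the ferritin heavy chain (1.70 ± 0.21), Best1 (1.91 ± 0.26), Myrf (1.39 ± 0.30), Bloc1s2 (0.77 ± 0.24) and Mir5114 (3.26 ± 0.68) rose, and Rab3il1 fell by 0.64 (SE 0.20). Mir5114 is the gene inside the Scd2 exon, with 0 to 30 reads per library, and its reads cannot be told from those of Scd2. In DKO cells KLA raised Fth1 (2.07 ± 0.21) and Best1 (1.19 ± 0.26), 2 of 13. The difference in KLA response was called for 0 of 13 (0.0689% of all tested genes). Of all tested genes 28.6% were called with KLA in LXR-positive and 25.2% in DKO cells.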

How the data were processed

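Total RNA (500 ng per library, SMARTer stranded kit) was read single-end at 50 bases, per the labels' protocols. The deposited values are a normalized count signal per gene and library, and per the submitters' processing notes the authors used kallisto, DESeq2 and GRCm38. The log2 fold changes and adjusted p-values in the same deposited tables are the authors' own, for the difference in response between genotypes. Every value was a whole number of reads times a library factor (100% within 0.01 read), so read counts were recovered. Each vehicle library has the same values in all 3 tables, and 0 sample columns lacked a sample.

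Genes with 10 or more normalized counts in at least 3 of the 12 libraries of a treatment and vehicle in both genotypes were tested with limma 3.58.1 (R 4.3.3) on log2(value + 1), with Benjamini-Hochberg adjustment over all tested genes and a threshold of 0.05. The comparison of GW3965 with AcLDL used all 24 libraries. The fits were tested on simulated data. Alternatives were a pseudocount of 8, no filter, other scalings, edgeR 4.0.16 and DESeq2 1.42.0 on recovered reads, thinned reads, other sets of libraries, a mouse block and each library left out. Replicate numbers were read as mice, which gives 6 mice in 4 treatments, a count that follows from this reading. Over 17082 genes, the deviations of same-numbered libraries of a genotype had a median correlation of 0.139 (36 pairs, -0.00942 to 0.341, 28 over 0.1). Differently numbered libraries were not correlated, so this value does not test the reading of replicate numbers as mice. All members are named, and of other genes those called in a list or most like a member in Pearson r. Members and lists were chosen with earlier results of these data known. RefSeq promoters were found for 4 of 7 members. P-values of the main fits measure the spread between libraries within groups, pooled over all groups of a fit. Those fits hold no mouse term, so libraries of the same mouse were treated as independent. Values of a single library carry counting error as well.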

Additional observations from a re-analysis of the deposited data

Results flagged for a closer look

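The response to a treatment differed between genotypes, by a test of the difference itself (DKO minus LXR-positive, log2 scale, limma with Benjamini-Hochberg adjustment), for 6 results. With GW3965 the difference was -6.48 for Scd1 (adjusted p = 0.0052), -5.59 for Scd2 (1.2e-05) and -3.68 for Fads2 (0.044). With KLA it was -4.39 for Scd2 (0.0030) and -4.88 for Fads2 (0.047). With AcLDL it was -4.43 for Scd2 (0.0092). The 3 treatments share their vehicle libraries within each genotype, so these 6 values are not independent. In the authors' deposited table the same differences were -6.58, -5.61 and -3.78 for GW3965, -4.48 and -5.42 for KLA, and -4.36 for AcLDL. That table also has an adjusted p under the threshold for Scd4 with GW3965 (-3.76, 0.00109) and for Scd1 (-4.86, 0.00598) and Fads1 (-0.762, 0.0192) with KLA.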

How the results depend on the processing

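Of 1585 values of single desaturases under an alternative, 1475 kept their side of the threshold, 90 lost a call, 20 gained one and 0 called values changed sign, while 42 changed sign with neither value called (2 more for the summed Scd genes). The summed Scd response to AcLDL in LXR-positive cells (1.45, not called) passed with the replicate block (1.45), in DESeq2 (1.47) and with only the 6 libraries compared (1.45). With only those 6 libraries, the calls ended for AcLDL in DKO cells (-2.70), for the genotypes under AcLDL (-1.36; edgeR gave -1.22) and for GW3965 against AcLDL in DKO cells (2.80). With each library left out, the summed genotype difference in AcLDL response ran from -4.59 to -3.79, that under AcLDL from -1.79 to -0.998 and that under KLA from -1.83 to -1.24. The first lost its call without any LXR-positive vehicle library, LXR-positive AcLDL library 1 or 2 or DKO vehicle library 1 (limma adjusted p 0.055 to 0.10), the next without LXR-positive AcLDL library 1 or 2 or DKO AcLDL library 1 or 3 (0.078 to 0.11), and the last without LXR-positive KLA library 3 or any DKO KLA library (0.052 to 0.069).

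The number of desaturases called with the replicate block, which pairs libraries by mouse, was in LXR-positive cells 5 for GW3965 (0.323% of all tested genes), 2 for AcLDL (1.54%) and 6 for KLA (30%). Genotypes in 1 condition share no mouse, so no block could be used there. In LXR-positive cells, GW3965 called 3 with only 6 libraries (0.258%) and 3 to 4 with one left out, and AcLDL called 1 in DESeq2 (1.95%) and 1 with only 6 libraries (0.455%). In DKO cells AcLDL called 0 with only 6 libraries (0.0979%), as did GW3965 against AcLDL (0.0712%). Between genotypes, leaving out one library gave 2 to 3 under GW3965, 0 to 1 under AcLDL, 1 to 3 under KLA and 1 to 3 under vehicle (3 without DKO vehicle library 3). Thinned reads gave 2 under GW3965 (6.11%), DESeq2 gave 3 under vehicle (2.34%), and a pseudocount of 8 and DESeq2 each gave 4 under KLA (7.36% and 12%). The count of differences in response with one library left out was 2 to 3 for GW3965, 0 to 1 for AcLDL and 1 to 2 for KLA. In DESeq2 it was 4 for GW3965 (0.341%) and 3 for KLA (0.307%). Thinned reads gave 2 for GW3965 (0.112%) and 1 for KLA (0.0554%), and edgeR gave 2 for GW3965. A pseudocount of 8 and no filter each gave 1 for KLA (0.0877% and 0.0313%).

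Counts over all genes moved by more than 1.5 times in some settings: GW3965 in LXR-positive cells from 43 to 86, in DKO cells from 1 to between 0 and 26, and their difference from 19 to 55. For AcLDL they moved from 36 to between 10 and 270, from 20 to between 38 and 78, and from 4 to between 1 and 12. The KLA difference moved from 11 to between 5 and 49. Between genotypes they moved from 51 to between 10 and 304 (vehicle), from 1553 to between 458 and 979 (GW3965), from 1379 to between 116 and 896 (AcLDL) and from 1097 to between 127 and 1851 (KLA). GW3965 against AcLDL moved from 87 to between 54 and 268 in LXR-positive and from 24 to between 11 and 70 in DKO cells. The cause of these changes was not tested. Depth limits Scd4 and, with vehicle and with AcLDL, Fads2, where LXR-positive libraries held few reads.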
